A study of Mus musculus with 22 samples.

Results

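The cytosolic ribosomal protein genes were followed across 4 blood-forming cell populations of mice with and without Arid1a, a DNA-binding subunit of the BAF (SWI/SNF) chromatin remodelling complex. Members were the protein-coding mouse genes whose symbol is Rpl or Rps followed by a digit, without the S6 kinases, together with Rplp0, Rplp1, Rplp2 and Rpsa. The rule took 92 of the 47311 genes that had a transcript in the files. Of these, 31 code for small subunit proteins, 43 for large subunit proteins and 3 for the acidic stalk, 77 genes in all. The other 15 are paralogs, annotated copies and 1 gene, Rps19bp1, that codes for a protein binding Rps19 and not for a ribosomal protein. Rpl36-ps4 had no count in any library.

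RNA was sequenced from 22 libraries of C57BL/6 mice carrying a floxed Arid1a allele (Arid1a f/f), backcrossed for 5 generations. WT mice were Arid1a f/f;Mx1-Cre- and KO mice Arid1a f/f;Mx1-Cre+, labelled ARID1A-/-, and both received 5 doses of poly(I:C) at 8 to 14 weeks of age, so that the injections and the floxed allele are common to all groups. Mx1-Cre is driven by an interferon-inducible promoter that is not limited to blood cells, and it removes exon 9 of Arid1a. Common myeloid progenitors (CMP), granulocyte-macrophage progenitors (GMP) and megakaryocyte-erythroid progenitors (MEP) were sorted from bone marrow 4 weeks later, each from 3 WT mice (300, 305 and 309) and 3 KO mice (301, 304 and 308). Long-term hematopoietic stem cells (LT-HSC, CD34- Flt3- LSK cells) came from 2 WT libraries (S245 and S269) and 2 KO libraries (S244 and S270). LT-HSC libraries used the SMART-Seq Ultra Low Input chemistry and the precursor libraries a poly-A TruSeq kit, so that for levels the population and the kit cannot be told apart between LT-HSC and precursors.

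A cytosolic ribosome holds 1 copy of nearly every ribosomal protein, and the stalk, with Rplp0 as its base and Rplp1 and Rplp2 as dimers on it, recruits the translation factors. The mRNAs of these genes are among the most abundant of a growing cell. They typically begin with a C followed by a run of pyrimidines, the 5′ terminal oligopyrimidine (TOP) motif, through which their translation is switched on and off by mTOR signalling and the RNA-binding protein Larp1. In blood formation the family is known for Diamond-Blackfan anaemia, in which loss of 1 allele of RPS19 or another member spares most tissues and blocks red cell production.

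The starts of some mRNAs that the results below name are shown, with and without this feature. They were picked as examples and do not give its share among members, which follows them. Each line holds 15 bases before and 15 bases from the RefSeq start site (GRCm38.p6), 5′ to 3′ on the transcribed strand. Capitals mark a tract of a C and at least 4 further pyrimidines. Only the tract from the C nearest the start, within 5 bases, is marked. 66 members had an entry in the RefSeq promoter table, 1 start site a gene.
Rpl28, chr7:4792950-4792979, plus strand: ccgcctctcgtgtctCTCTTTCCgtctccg
Rps21, chr2:180257364-180257393, plus strand: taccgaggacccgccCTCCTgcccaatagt
Rps27, chr3:90213634-90213663, minus strand: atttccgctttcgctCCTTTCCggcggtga
Rpl15, chr14:18270972-18271001, minus strand: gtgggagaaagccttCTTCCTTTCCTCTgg
Rps10, chr17:27635230-27635259, minus strand: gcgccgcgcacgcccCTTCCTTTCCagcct
Rplp2, chr7:141447636-141447665, plus strand: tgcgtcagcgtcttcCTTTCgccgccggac
Rps28, chr17:33824548-33824577, minus strand: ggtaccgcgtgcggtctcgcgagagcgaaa
Rpl5, chr5:107900513-107900542, plus strand: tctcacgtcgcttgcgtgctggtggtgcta
Rps19, chr7:24884577-24884606, plus strand: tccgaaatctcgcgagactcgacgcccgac
Rps12, chr10:23787195-23787224, minus strand: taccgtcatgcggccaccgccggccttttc

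In the windows of Rps28, Rpl5, Rps19 and Rps12 no such tract begins within 5 bases of the annotated start. In the others the annotated first base is a C with at least 4 further pyrimidines after it. A pyrimidine also stands directly before that C in each of them. Over the 66 members, 19.7% had a tract whose C is the annotated first base, against 2.49% of the 27025 promoters in the table. With the C allowed up to 5 bases away on either side, the shares were 43.9% and 18.5%. The annotated site is 1 position, so a member without a match here may still start with a tract elsewhere. Among 69 mitochondrial ribosomal protein genes, whose products serve a separate ribosome, the share with the C within 5 bases was 21.7%. In the 300 bases from 250 before to 50 after the start, CCGGAAG, read on either strand, was present in 37.9% of members, 36.2% of mitochondrial ribosomal protein genes, 17.2% of the promoters of genes tested in WT populations and 9.12% of all promoters. The letters AAGATGGCG, on either strand, were in 6.06% of members, 11.6% of mitochondrial ribosomal protein genes, 2.97% of the promoters of tested genes and 1.49% of all promoters. None of these matches is a measured binding site.

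Depth and labels were checked over the whole set of libraries. The estimated counts on genes lay between 40804031 and 65930737 per library. Arid1a, of which only exon 9 is deleted, was lower in KO cells in CMP (log2 change -0.22 ± 0.06 SE, edgeR adjusted p = 0.028), GMP (-0.40, adjusted p = 0.025) and MEP (-0.14, adjusted p = 0.084). In LT-HSC it was 119.3 and 110.9 CPM in WT and 50.93 and 53.64 CPM in KO, with log2 change -1.14 and an edgeR adjusted p of 0.42. The marker list of each population had its highest library sum in that population. LT-HSC libraries held 345.7 to 577.7 TPM of LT-HSC markers (listed below). They also held 1163 to 3173 TPM of MEP markers, 641.3 to 1415 TPM of GMP markers and 575.2 to 1715 TPM of late erythroid markers. GMP markers (Mpo, Elane, Prtn3, Ctsg, Ms4a3 and Fcgr3) summed to 31257 to 46882 TPM in GMP libraries and 26.84 to 60.92 TPM in MEP libraries. Mice 304 and 305 had Y-linked sums of 0.6901 to 1.777 TPM, and the other 4 precursor mice had 83.42 to 125.7 TPM. Each genotype thus held 1 precursor mouse that differs from the other 2 in this respect. In LT-HSC the Y-linked sum was 16.22 TPM in WT S245, 2.941 in WT S269, 3.449 in KO S244 and 1.044 in KO S270.

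The members took up a large share of the RNA in all precursor libraries. Their deposited TPM values, which are corrected for transcript length and sum to a fixed total per library, added up to between 128759 and 232504 TPM in CMP, GMP and MEP and between 95557 and 106502 TPM in LT-HSC. In the same libraries they took 5.468% to 9.748% of the estimated counts of precursors and 3.54% to 3.965% of those of LT-HSC. In WT CMP the sum was 198562 ± 9894 TPM (SD, n = 3), in WT GMP 172103 ± 16013 TPM, in WT MEP 225320 ± 7612 TPM and in WT LT-HSC 97756 ± 3109 TPM (SD, n = 2). Kallisto used a fragment length of 173.8 to 194.4 bases for the precursor libraries and 263.7 to 286.6 bases for LT-HSC. The part of these values in the difference between LT-HSC and precursors was not tested.

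Within a library the 77 subunit and stalk genes were far from equal in level, although their proteins are needed in nearly equal amounts. Rplp1, a stalk protein, was the highest by TPM in all 3 precursor populations, with means over both genotypes of 5775 TPM in CMP, 5084 TPM in GMP and 8634 TPM in MEP. Rpl32, Rps24, Rps12 and Rps29 followed in CMP with 4886 ± 219, 4783 ± 177, 4368 ± 396 and 4268 ± 291 TPM (SD, n = 6). Of these, Rpl32 and Rps24 did not differ beyond their spread, and neither did Rps12 and Rps29. In GMP the next were Rps12, Rps29, Rpl32 and Rps24 (4086 to 3357 TPM), and in MEP they were Rpl32, Rps2, Rps12 and Rps18 (5305 to 4669 TPM). At the lower end, Rpl5, Rpl12, Rpl27, Rpl27a and Rpl37 came last of the 77 in that order in all 3 populations, from 75.15 to 626.5 TPM in CMP. In LT-HSC the highest was Rpl13 with 4797 ± 275 TPM (SD, n = 4), followed by Rps29, Rpl32, Rps27 and Rpl36. Rps12 was at 154.6 ± 67.7 TPM there, among the 5 lowest with Rpl5, Rpl12, Rpl27a and Rps20, while it was among the 5 highest in each precursor population.

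Part of this spread lies with copies. Ribosomal protein mRNAs have left many processed pseudogenes, which are intron-less copies in the genome, and fragments that match both a gene and its copy were divided between them by kallisto. Transcripts of 458 other genes matched the coding sequence of a member with at least 95% identity over at least 80% of its length, and 70 of the 77 subunit and stalk genes had such a copy. For 13 genes the copies held more TPM than the gene. Rpl5 had 82.22 TPM on average in WT precursors and its copies 2560 TPM, nearly all on Gm15500, a transcribed processed pseudogene on chromosome 7 from 114705217 to 114706235 that matches the whole Rpl5 coding sequence (100% identity). Rpl12 had 167.8 TPM and the copy Gm10275 3580 TPM, and Rpl27 had 194.5 TPM and Rpl27-ps3 2448 TPM. Rpl27a, with 524.1 TPM against 3196 TPM on Gm7536, showed the same split, and Rps23, Rpl10, Rpl28, Rpl37, Rpl15, Rps20, Rps16, Rpl31 and Rpl10a had between 50.58% and 75.34% of their TPM on copies. With copies added to their genes, the range over the 77 genes narrowed from 82.22 to 7015 TPM (CV 47.7%) to 1444 to 7386 TPM (CV 35.7%), and the number below 1000 TPM went from 7 to 0. Levels of these genes alone are therefore uncertain, and results for them are given with copies added where that changes them.

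**Figure D1:**
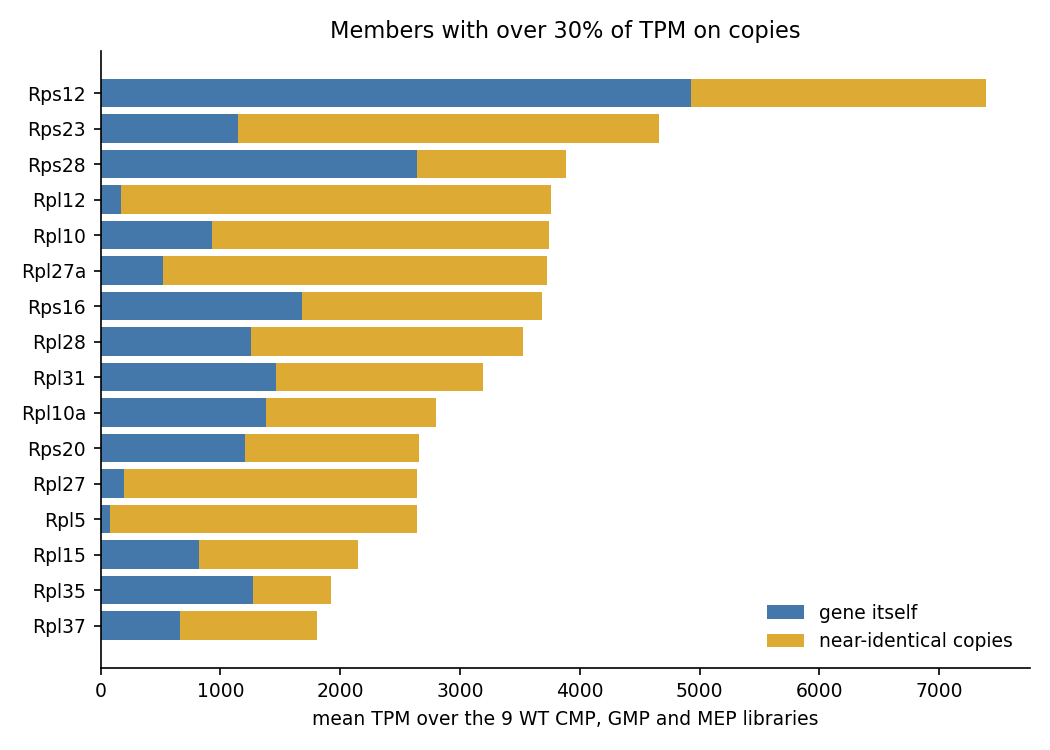
Mean TPM over the 9 WT precursor libraries (horizontal axis) of the members with over 30% of their TPM on near-identical copies, the gene itself in blue and its copies in yellow. For Rpl5, Rpl12 and Rpl27 nearly the whole bar lies on copies, with 82.22, 167.8 and 194.5 TPM on the genes themselves.

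In KO CMP the members lay below WT almost throughout. The summed TPM was 196784, 209225 and 189677 in the WT mice and 181134, 187090 and 187292 in the KO mice. The groups did not overlap, and the KO mean differed from the WT mean by -6.74%. On the scale of CPM after TMM normalization, which corrects for differences in RNA composition between libraries, the sums differed by -12.4%. In summed TPM the difference was -7.8% for small subunit genes, -5.93% for large subunit genes and -5.42% for the stalk, the last with overlapping groups. In bulk RNA a lower share of these mRNAs in each cell and a change in the kinds of cells sorted cannot be told apart.

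**Figure D2:**
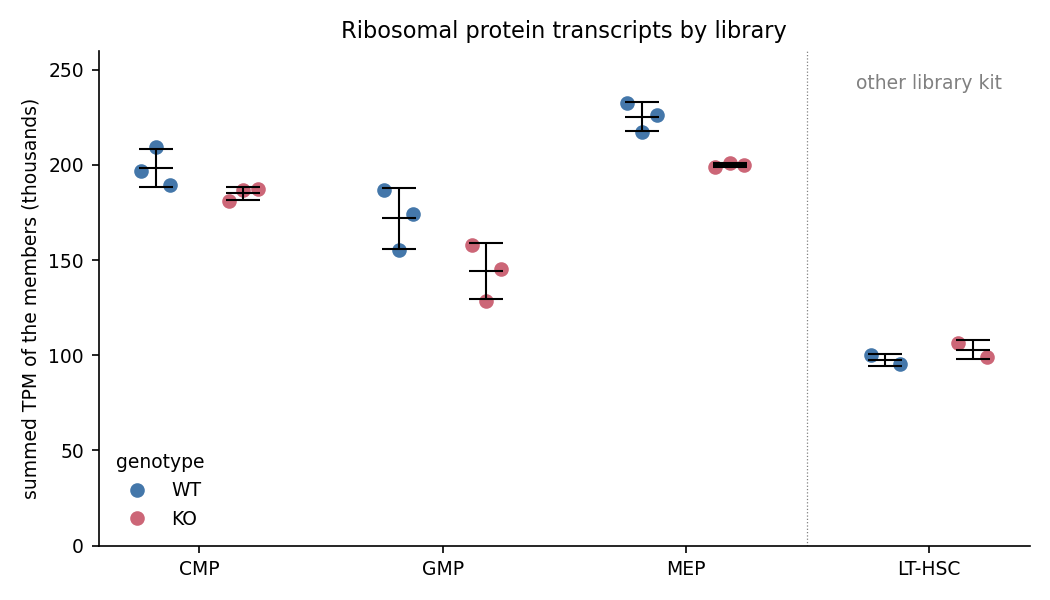
Summed TPM of the 92 members in each of the 22 libraries (vertical axis), by population and genotype, with the mean of each group. WT and KO libraries are apart in CMP and MEP and overlap in GMP and LT-HSC, where the lowest library is 95557 TPM.

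Among single genes in CMP, 58 of 87 tested members were lower in KO at an FDR of 0.1 and 1 was higher. Over all 17214 genes tested, 12.8% were lower and 10.6% higher, 23.4% in either direction. All 77 subunit and stalk genes had a log2 change below 0, with a median over all tested members of -0.19 where the median of all genes was 0.00. The lower calls took in 25 of 31 small subunit genes, 29 of 43 large subunit genes and 2 of 3 stalk genes. On the deposited TPM scale the KO mean was below the WT mean for 73 of the 77 and above it for 4. In 74 members every KO mouse was below every WT mouse, which held for 18.3% of all genes tested, and in 1 every KO mouse was above (15.7% of all genes). The count of lower members was 22 without KO mouse 301, 32 without WT mouse 309 and 31 with mice 304 and 305 both left out. Those fits called 15.3%, 16% and 21.1% of all genes in either direction.

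Rpl28 (chromosome 7 from 4792874 to 4795066), a large subunit protein, had the largest fall among well-expressed members in CMP. It was 522.5, 589.9 and 538.7 CPM in WT CMP and 397.7, 432.3 and 419.2 CPM in KO CMP, with no overlap. The log2 change was -0.40 ± 0.06 (SE, edgeR adjusted p = 0.0028), and -0.38 with its copies added. Rps21, a small subunit protein, went from 379.1, 408.9 and 373.6 CPM to 293.8, 312.3 and 300.7 CPM (log2 change -0.36 ± 0.06, edgeR adjusted p = 0.0029). Rps19, the gene most often mutated in Diamond-Blackfan anaemia, had 998.1, 1086 and 999.9 CPM in WT CMP and 797.3, 844.9 and 832.1 CPM in KO CMP. All 3 KO values were below the lowest WT value, and the log2 change was -0.32 ± 0.06 (edgeR adjusted p = 0.0049). Rps28 was 385, 416 and 392.8 CPM in WT and 316.9, 321.5 and 324.4 CPM in KO, a log2 change of -0.31 ± 0.05 (edgeR adjusted p = 0.0038). Rps27rt, an intron-less relative of Rps27 at 5.61 to 14.72 CPM, had the lowest log2 change of any member (-0.60 ± 0.21, edgeR adjusted p = 0.091). That call was lost when KO mouse 301 or 308 or WT mouse 305 or 309 was left out.

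The 1 higher member in CMP was Rpl3l, the paralog of Rpl3 that is known from skeletal and heart muscle. It stood at 0.189, 0.1435 and 0.4725 CPM in WT CMP and 1.64, 1.107 and 2.043 CPM in KO CMP, a log2 change of 2.61 ± 0.45 (edgeR adjusted p = 0.0043). Rpl3 itself was at 2251, 2394 and 2279 CPM in WT CMP and 2006, 2186 and 2171 CPM in KO CMP, so that the paralog remained a trace beside it. The change in Rpl3 did not pass the threshold (log2 change -0.12, edgeR adjusted p = 0.19).

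KO MEP also lay below WT MEP in summed level. Summed TPM was 232504, 217341 and 226116 in WT MEP and 198914, 200877 and 199914 in KO MEP, a difference of -11.3% without overlap. The 3 KO mice were within a narrow range (SD 981 TPM, against 7612 TPM in WT). In summed TPM the difference was -15% for the stalk, -12.2% for small subunit genes and -10.1% for large subunit genes. The ratio of small to large subunit TPM was 1.019 to 1.029 in WT MEP and 0.9945 to 1.014 in KO MEP. In CMP that ratio was 1.091 to 1.102 in WT and 1.071 to 1.078 in KO. The groups were apart in both populations.

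By gene, 61 of 87 tested members were lower in KO MEP and 1 was higher, where 15.4% of the 15777 genes tested were lower and 14% higher (29.4% in either direction). They comprised 26 of 31 small subunit genes, 30 of 43 large subunit genes and all 3 stalk genes. Again all 77 had a log2 change below 0, the median over tested members was -0.19, and in 59 members the groups did not overlap in the direction of lower KO values (20% of all genes), and in 1 they did not overlap in the other direction (18.7%). Without KO mouse 301 the count of lower members was 33, where 18.7% of all genes were called in either direction.

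Rps12, a small subunit protein (chromosome 10 from 23785183 to 23787275), fell most in MEP. It had 1325, 1336 and 1247 CPM in WT MEP and 913.4, 949.6 and 985.7 CPM in KO MEP, far apart for the spread within each genotype. The log2 change was -0.46 ± 0.05 (edgeR adjusted p = 0.00038). Its only near-identical copy, Rps12-ps3, is itself a member and was not added to it. Rps12-ps3 was at 1011, 881.5 and 990.5 CPM in WT MEP and 788.3, 740.9 and 831.7 CPM in KO MEP. Rps28 went from 497, 445.2 and 488.6 CPM to 354.6, 366.8 and 394.1 CPM (log2 change -0.36 ± 0.06, edgeR adjusted p = 0.004). Rps21 and Rps27 fell by 0.33 and 0.31 on the log2 scale, and Rpl28 by 0.31 (edgeR adjusted p = 0.0058, 0.0096 and 0.034). Of these, the call for Rpl28 was lost when KO mouse 301, WT mouse 300 or WT mouse 309 was left out. Among the stalk genes, Rplp1 was at 2393, 2321 and 2332 CPM in WT MEP and 1862, 1891 and 2002 CPM in KO MEP, again with no overlap. Its log2 change was -0.29 ± 0.04 (edgeR adjusted p = 0.0018), with -0.22 for Rplp0 and -0.24 for Rplp2 (edgeR adjusted p = 0.003 and 0.013). Rpsa, a small subunit protein also known as the laminin receptor, was at -0.14 (edgeR adjusted p = 0.037).

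Of the 86 members tested in both CMP and MEP, 47 were lower in KO in both, 11 in CMP alone and 14 in MEP alone. The same mice gave both populations. Whether the KO effect in MEP differs from that in CMP was tested by an interaction term, with the mouse as a block. It passed for 0 of 88 members in edgeR, where 7.37% of all genes were lower and 5.67% higher (13% in either direction). No member had an unadjusted p under 0.05, and DESeq2 also gave 0. The median difference over members was 0.01.

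**Figure D3:**
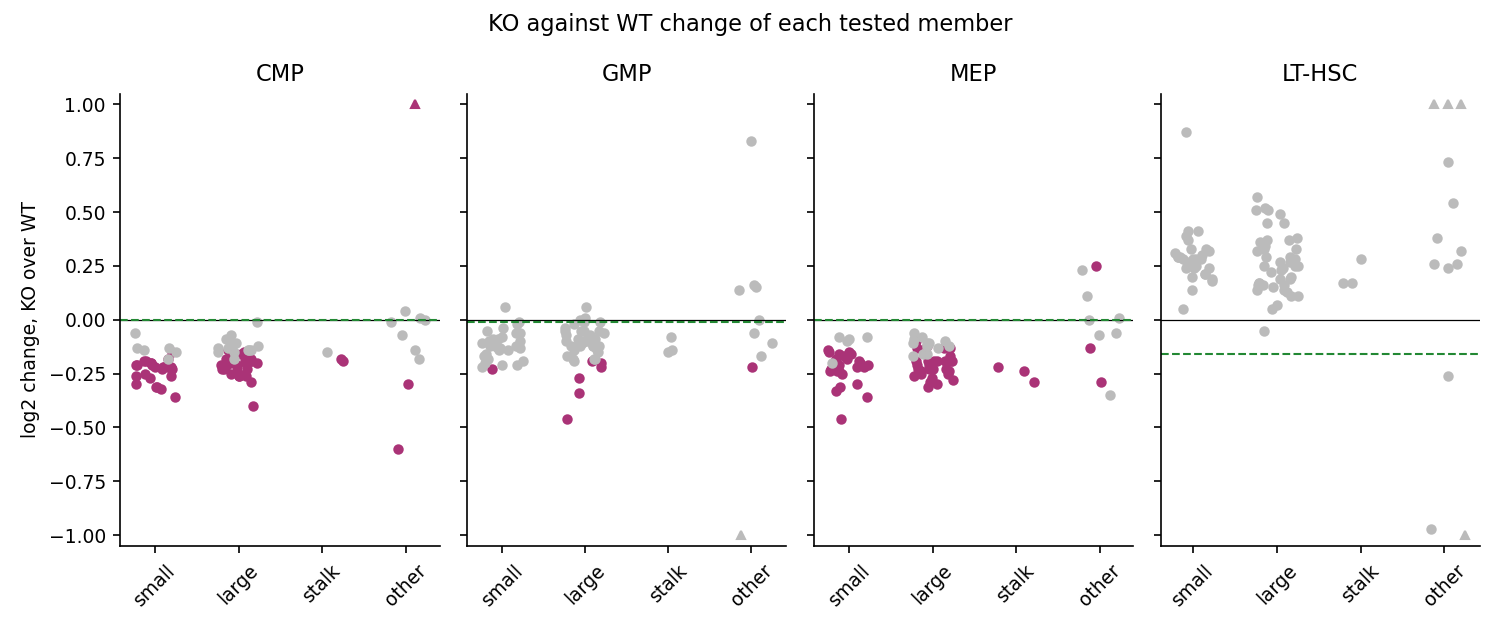
Log2 change of each tested member, KO over WT, in CMP, GMP, MEP and LT-HSC (1 point a gene, by class); called members are purple, triangles mark values beyond the axis and the green dashed line is the median of all genes. The points lie below 0 in CMP and MEP with medians of -0.19, closer to 0 in GMP (-0.11) and above 0 in LT-HSC (0.27).

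Markers of other cell stages differed with genotype in the same libraries. LT-HSC markers (Procr, Slamf1, Mecom, Hlf, Fgd5 and Mllt3) summed to 98.97 to 110.5 TPM in KO CMP and 51.76 to 68.57 TPM in WT CMP, with 3 higher and 2 lower, and to 115.4 to 127 TPM in KO MEP and 68.47 to 71.44 TPM in WT MEP, with 3 higher. All 5 late erythroid markers, a list with Alas2, Slc4a1 and the globin genes, were higher in KO CMP, where they summed to 260.1 to 428.9 TPM against 29.95 to 64.36 TPM in WT CMP, and 4 of 5 were higher in KO MEP (349.6 to 608.8 TPM against 113.9 to 308.2 TPM). GMP markers summed to 1752 to 2716 TPM in KO CMP and 3954 to 4811 TPM in WT CMP, with 4 of 6 lower, and MEP markers to 1157 to 1385 TPM in KO CMP and 986.2 to 1079 TPM in WT CMP, with 4 of 6 higher. MEP markers (Gata1, Klf1, Epor, Car1, Tfrc and Gfi1b) summed to 3140 to 3807 TPM in KO MEP and 4824 to 6165 TPM in WT MEP, with 2 of 6 lower and 2 higher. No marker of these lists was at 0 in every library of CMP or of MEP in either genotype. Their part in the lower ribosomal protein mRNAs was not tested.

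In KO GMP the difference in mean summed TPM was larger than in CMP or MEP, but the mice of each genotype spread further. WT GMP had 187084, 155227 and 173999 TPM and KO GMP 158128, 128759 and 145418 TPM, a mean difference of -16.3% with groups that overlapped, since WT mouse 305 lay below KO mouse 301. On the TMM-normalized scale the difference was -6.94%. GMP markers, which are among the most abundant mRNAs of these cells, summed to 41604 to 46882 TPM in KO and 31257 to 36790 TPM in WT, with 5 of 6 higher in KO. Neutrophil markers were at 1205 TPM in KO mouse 304 and between 157.6 and 408.2 TPM in the other 5 GMP libraries. The part of either in the summed TPM was not tested.

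Gene by gene, 8 of 87 tested members were lower in KO GMP and none higher, where 16.3% of all 16383 genes were lower and 17.5% higher (33.9% in either direction). 74 of the 77 subunit and stalk genes had a log2 change below 0, with a median of -0.11 over tested members against -0.01 over all genes. In 4 members every KO mouse was below every WT mouse (20.8% of all genes), and in 2 every KO mouse was above (21.5%). The count depended on single mice. It was 44 without WT mouse 305, 2 without KO mouse 304 and 4 without KO mouse 308. It was 2 without WT mouse 300, 3 without WT mouse 309, and 28 with mice 304 and 305 both left out. In the order given, these fits called 32.3%, 29.2%, 26.9%, 29.5%, 24.6% and 32.5% of all genes in either direction. The study used sex-matched littermates as controls without saying which mice belong together. With WT and KO mice of neighbouring numbers (300 and 301, 305 and 304, 309 and 308) as a replicate block, 42 members were lower and 3 higher, where edgeR called 43.7% of all genes in either direction. Within these pairs the summed TPM differed by -15.5%, -17.1% and -16.4%, and the pairs' deviations from their group means correlated at 0.37, 0.31 and 0.33 over genes.

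The 8 were Rpl5, Rpl28, Rpl12, Rpl37, Rpl27a, Rpl10a, Rps26 and the paralog Rpl22l1. Rpl28 was at 472.3, 449.7 and 494.4 CPM in WT GMP and 393.9, 349.2 and 379.3 CPM in KO GMP, with no overlap (log2 change -0.34 ± 0.07, edgeR adjusted p = 0.0064). Rpl5, which with Rpl11 binds Mdm2 when ribosome assembly is disturbed, was at 54.17, 49.49 and 60.02 CPM in WT GMP and 40.67, 34.49 and 43.98 CPM in KO GMP. Its log2 change of -0.46 ± 0.10 (edgeR adjusted p = 0.01) became -0.12 ± 0.09 (adjusted p = 0.35) with copies added, and those hold 96.89% of its TPM. Rpl12 was at -0.27 ± 0.09 (edgeR adjusted p = 0.057) and at -0.16 (adjusted p = 0.26) with copies added. Rpl10a was at -0.19 ± 0.07 (edgeR adjusted p = 0.085). Rpl10a, Rpl27a, Rpl28 and Rpl37 were the 4 members lower in KO in all 3 precursor populations, and all of them have more TPM on copies than on the gene itself. With copies added, the call in GMP held for Rpl28 (-0.28, edgeR adjusted p = 0.026) and was lost for Rpl10a (-0.12, 0.37), Rpl27a (-0.12, 0.38) and Rpl37 (-0.17, 0.22), while all 4 stayed called in CMP and MEP.

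Between GMP and the other populations the KO effect differed for few members. For GMP less CMP, 2 of 88 passed as lower and none as higher (10% and 10.9% of 18523 genes, 21% in either direction), and for GMP less MEP 2 were lower and 2 higher (12.2% and 14.6%, 26.8% in either direction). Rps12 had a KO effect 0.33 ± 0.12 higher in GMP than in MEP on the log2 scale (edgeR adjusted p = 0.069). In GMP it was at 1017, 800.7 and 984.6 CPM in WT and 889, 773.5 and 878.6 CPM in KO, which overlap, unlike the MEP values above. Its call was lost without mouse 301 (0.25, adjusted p = 0.26), mouse 305 (0.19, adjusted p = 0.27) or mouse 308 (0.34, adjusted p = 0.15). Rpl37a, a large subunit protein, was at 495.4, 368.3 and 438 CPM in WT GMP and 482.6, 430.6 and 443 CPM in KO GMP, with its effect 0.36 ± 0.12 above that in MEP (edgeR adjusted p = 0.054). This call was lost without mouse 301, 304 or 309 (0.29, 0.38 and 0.35) and with mice 304 and 305 both left out (0.29). Rpl5 was 0.32 lower in GMP than in CMP and 0.29 lower than in MEP on the log2 scale by its own counts, where leaving out mouse 304 ended both calls and leaving out mouse 309 ended the first. With copies added these became 0.08 and -0.04, neither called. The other call was Rpl39l, which did not exceed 0.6442 CPM in any of the 18 precursor libraries.

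In LT-HSC no member was called. The WT libraries had summed TPM of 99954 and 95557, the KO libraries 106502 and 99355, and these ranges overlapped. On the TMM-normalized scale the sums were 31788 and 37407 CPM in WT and 40548 and 41682 CPM in KO, 18.8% higher and apart. None of the 90 tested members passed in edgeR, where 0.0528% of 22733 genes were lower and 0.0264% higher (0.0792% in either direction). Unadjusted p-values were under 0.05 for 2 members, Rps12 (log2 change 0.87) and Rps27l (0.73), and DESeq2 called 0. The median log2 change of members was 0.27 and that of all genes -0.16. Without WT library S245 these medians were 0.18 and 0.07, and without WT library S269 they were 0.34 and -0.60. S245 had 27191 genes with at least 10 counts, against 20089 in S269 and 22407 and 18504 in KO. In 58 members both KO libraries were above both WT libraries, which held for 16.9% of all genes, and in 1 both were below (19.4%). Without WT library S269 there were 11 higher members, where 9.16% of all genes were called in either direction, and without WT library S245 there were 2, where 2.41% were. Each of these fits has 1 WT library, which is assumed to vary like the KO libraries. The simulated test at this size recovered 0% of genes changed by a factor of 2. Its changed genes were drawn at random from expressed genes, so it does not give the change detectable in the members. The absence of calls here does not show an absence of change. Late erythroid markers summed to 1715 and 1483 TPM in KO and 1085 and 575.2 TPM in WT, and neutrophil markers were at 2543 TPM in WT library S269 and between 369.1 and 444.9 TPM in the other 3. Macrophage markers summed to 33.73 and 26.88 TPM in KO and 15.08 and 7.713 TPM in WT, with all 5 apart and higher in KO. LT-HSC markers summed to 345.7 and 390.3 TPM in KO and 577.7 and 443.4 TPM in WT, with 3 of 6 log2 changes below 0. No marker of these lists was called. Their part in these values was not tested.

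The Diamond-Blackfan anaemia genes were described as a group of 10, with Rps19, Rpl5, Rpl11, Rps26, Rps10, Rps24, Rps7, Rpl35a and Rpl15 among them. In KO CMP 7 of the 10 were lower, in KO MEP 5 and in KO GMP 2, beside 12.8%, 15.4% and 16.3% of all genes. Median log2 changes of the 10 were -0.20, -0.16 and -0.11, close to the medians of all members. In CMP the KO values of all 10 lay below the WT values without overlap, which held for 18.3% of all genes. Rpl35a, a large subunit protein, had a log2 change of -0.26 in CMP (edgeR adjusted p = 0.009), and Rps10 had -0.18 (0.037). In MEP Rps19 (-0.22 ± 0.06, edgeR adjusted p = 0.032), Rps10 (-0.20, 0.017), Rpl15 (-0.19, 0.084) and Rps24 (-0.15, 0.099) were among those that passed. The call for Rps19 in MEP was lost in 4 of the 6 fits that left out 1 mouse. Rpl11, which shares with Rpl5 the binding to Mdm2, had log2 changes of -0.11, -0.01 and -0.11 in the 3 precursor populations and passed in none (edgeR adjusted p = 0.22, 0.93 and 0.18). Rpl5 did not pass in CMP (-0.14) or MEP (-0.16) by its own counts. With copies added it passed in CMP (-0.19, edgeR adjusted p = 0.051) and not in MEP (-0.06, 0.37), and Rps24 in MEP no longer passed (-0.15, 0.11).

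Some members have a paralog of separate sequence, and each was set beside its partner, without a test of the difference between them. Rps27l, a paralog of Rps27 that is known as a target gene of p53, was the 1 member higher in KO MEP. It stood at 148.1, 166.6 and 155.2 CPM in WT MEP and 183, 195.8 and 181.4 CPM in KO MEP, with no overlap. The log2 change was 0.25 ± 0.06 (edgeR adjusted p = 0.017), where Rps27 went from 448.9, 427.9 and 472.2 CPM to 348.9, 344.3 and 392.1 CPM (-0.31 ± 0.06). In CMP Rps27l was at 0.00 ± 0.09 (edgeR adjusted p = 0.98) while Rps27 was at -0.23 ± 0.05 (edgeR adjusted p = 0.012), and in GMP Rps27l was at 0.14 and Rps27 at -0.21, neither called. A difference in the KO effect on Rps27l between populations was not shown, since it passed in none of the interactions.

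The coding sequences show which of these relatives the reads can tell apart. The lines give the first 90 bases of the longest annotated coding sequence of each gene, with capitals where a base differs from Rps27.
Rps27: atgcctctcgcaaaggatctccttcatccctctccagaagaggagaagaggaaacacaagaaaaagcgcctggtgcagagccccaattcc
Rps27l: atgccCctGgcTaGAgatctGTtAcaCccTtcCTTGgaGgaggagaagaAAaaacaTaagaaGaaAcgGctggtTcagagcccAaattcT
Rps27rt: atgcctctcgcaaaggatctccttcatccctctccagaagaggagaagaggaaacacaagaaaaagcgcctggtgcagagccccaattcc
Rps27l differs from Rps27 at 24 of these 90 bases, while Rps27rt, on chromosome 9 from 114982366 to 114982739, is identical to Rps27 over all 252 coding bases. Values of Rps27 and Rps27rt are thus uncertain against each other, and those of Rps27l are not affected by this identity.

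Of the other pairs, Rpl22 and Rpl22l1, an RNA-binding protein and the paralog it is known to repress, both had values below 0 in CMP, GMP and MEP. Rpl22 was lower in KO CMP (-0.19) and KO MEP (-0.16), and Rpl22l1 was at -0.18 in CMP, -0.22 in GMP and -0.07 in MEP, called in GMP alone (edgeR adjusted p = 0.098). Rpl36a was lower in CMP and MEP (-0.22 and -0.26), and its paralog Rpl36al, 87.7% identical in coding sequence, was at -0.01, 0.16 and 0.00 in CMP, GMP and MEP with none called. Rpl7 was lower in MEP (-0.13), and Rpl7l1 was at 0.01 in CMP, 0.15 in GMP and 0.01 in MEP, uncalled. Rpl39 was lower in CMP and MEP (-0.23 each), while Rpl39l did not pass the filter in CMP and had -0.06 in MEP, uncalled. Rpl10l, known from the testis, was listed at 0 TPM in all precursor libraries, and its partner Rpl10 was at -0.13, -0.01 and -0.09 in CMP, GMP and MEP with none called.

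**Figure D4:**
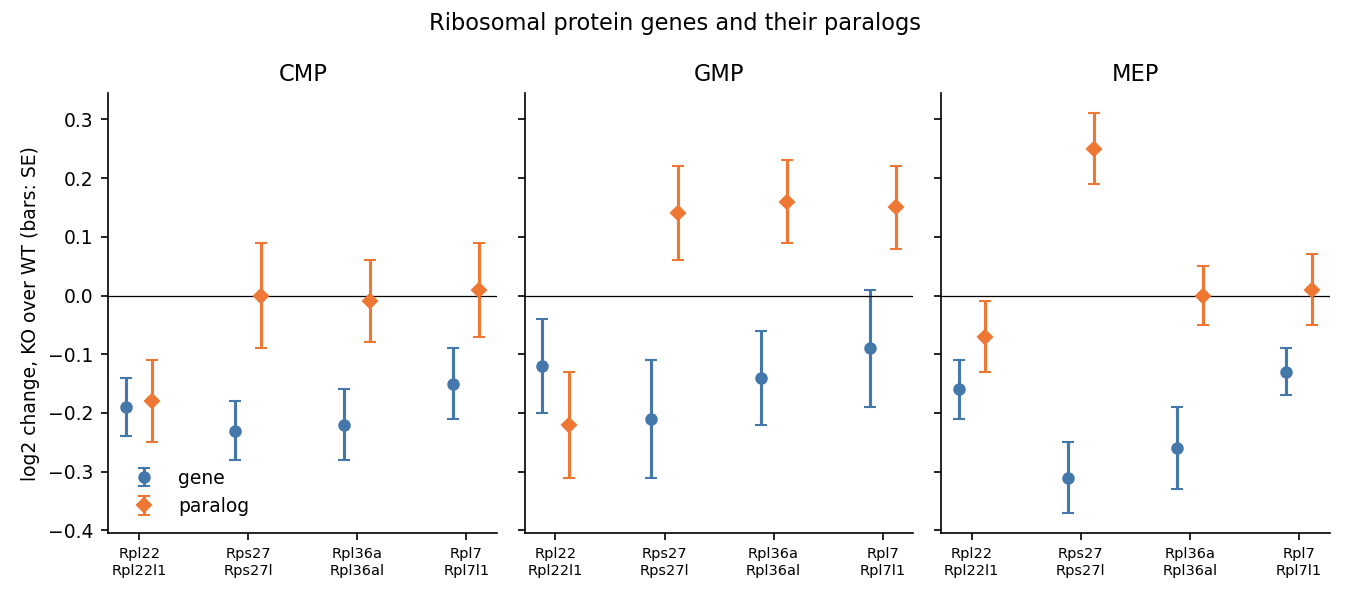
Log2 change, KO over WT, of 4 ribosomal protein genes (blue circles) and their paralogs (orange diamonds) in CMP, GMP and MEP, with bars of 1 SE from edgeR. In MEP Rps27 is at -0.31 and Rps27l at 0.25, and for Rpl36a and Rpl7 the paralog lies above its partner in each population.

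MEP had the highest sum and GMP the lowest of the 3 precursor populations in each of the 3 WT mice, with MEP over CMP at 1.18, 1.04 and 1.19 and GMP over CMP at 0.951, 0.742 and 0.917 in mice 300, 305 and 309. In the fit with the mouse as a block, 81 of 87 tested members were higher in MEP than in CMP and none lower, with a median log2 difference of 0.51. Of all 17476 genes 34.4% were higher and 38% lower (72.4% in either direction), with a median of -0.04. In 79 members every MEP library was above every CMP library and in 0 below (33.9% and 36.9% of all genes). Against MEP, 82 members were lower in GMP and none higher (36.1% and 36.5% of all genes, 72.6% in either direction), with a median of -0.56. There 80 members did not overlap with GMP below and 0 with GMP above (34.7% and 34.8%).

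The 3 stalk genes rose most as a class from CMP to MEP, with a median of 0.81 against 0.51 for large and 0.41 for small subunit genes. Rplp1 was at 1210, 1329 and 1166 CPM in CMP, 1346, 1196 and 1388 CPM in GMP and 2567, 2471 and 2438 CPM in MEP. Its MEP values all lay far above its CMP and GMP values, which overlapped each other (MEP against CMP log2 1.01 ± 0.07, edgeR adjusted p = 3.3e-06). Rplp2 and Rplp0 had log2 differences of 0.81 and 0.77 (edgeR adjusted p = 7.3e-06 and 8.7e-06), and Rpsa had 0.37 (0.00083). Rps27l went from 73.01, 88.59 and 72.25 CPM in CMP to 158.9, 177.3 and 162.3 CPM in MEP (log2 1.09 ± 0.10, edgeR adjusted p = 1.1e-05). Rps12-ps3, a gene on chromosome 19 annotated as protein-coding that is 96.4% identical to Rps12 in coding sequence, had 351.2, 409.9 and 371.5 CPM in CMP and 1084, 938.3 and 1035 CPM in MEP. Its log2 difference of 1.43 was the largest of all members, where Rps12 itself had 898.5, 956.7 and 889.5 CPM in CMP and 1422, 1422 and 1304 CPM in MEP. Rpl39l had 1.39 (edgeR adjusted p = 0.051) at no more than 0.6516 CPM and with overlapping libraries. Rpl27 and Rpl12 had 1.35 and 1.15, which became 0.74 and 0.63 with copies added. Rpl36 and Rpl24, both large subunit proteins, had GMP less MEP differences of -0.99 and -0.93 (edgeR adjusted p = 7.4e-06 and 4e-06). Further down in that comparison lay Rps12-ps3 (-1.40), Rps27rt (-1.34) and Rpl12 (-1.30, but -0.66 with copies added). Rps27rt was at only 4.138 to 27.54 CPM in the WT GMP and MEP libraries.

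A few members did not pass between CMP and MEP. Rps4x was at 2021, 2165 and 2039 CPM in CMP and 2210, 2029 and 2141 CPM in MEP, which overlap (log2 0.03). Rpl23a was at 0.02, Rpl21 at 0.01 and Rps14 at -0.03, and with Rpl9-ps6 these were among the 6 tested members that did not pass. They were chosen for naming after their values were seen. All 10 Diamond-Blackfan anaemia genes were higher in MEP than in CMP, from 0.19 for Rpl35a to 0.74 for Rps10 on the log2 scale of TMM-normalized CPM. On the deposited TPM scale, 15 of the 77 subunit and stalk genes had a lower WT mean in MEP than in CMP. Among them were Rpl35a (2254 ± 139.7 against 2537 ± 107.9 TPM, SD, n = 3), Rps24 (4500 against 4825 TPM) and Rps7 (1925 against 1953 TPM), so that their direction turns with the scaling.

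**Figure D5:**
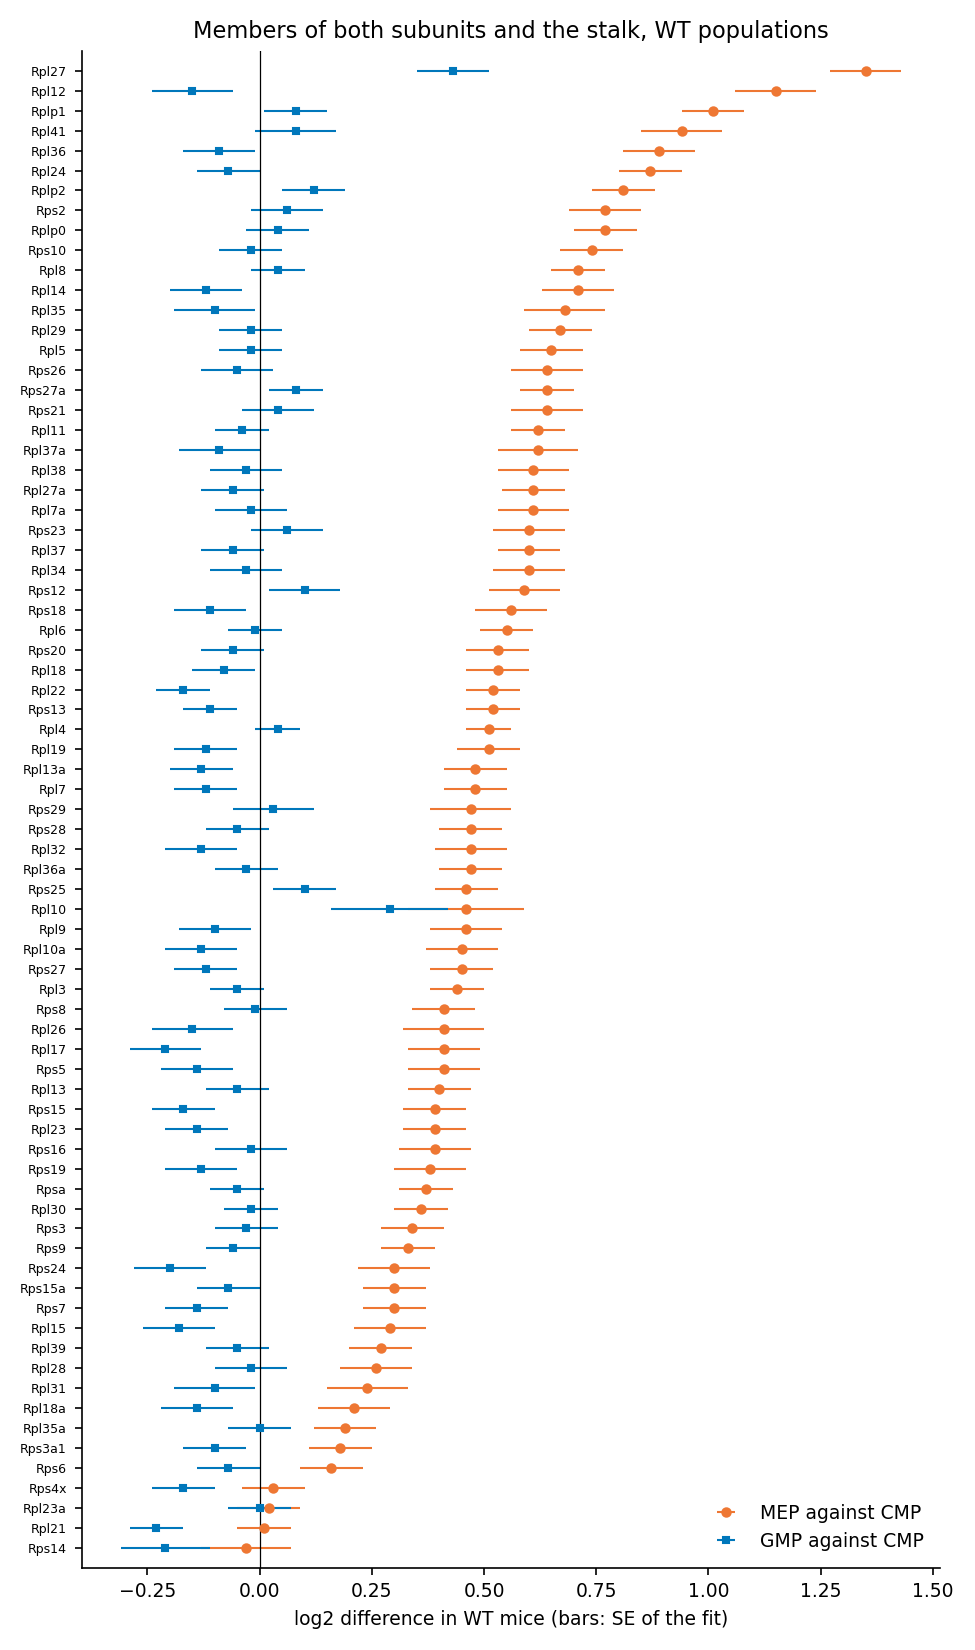
Log2 difference of the subunit and stalk genes reported by name, in WT mice, MEP against CMP (orange circles) and GMP against CMP (blue squares), with bars of 1 SE from edgeR and genes ordered by the MEP difference. The orange points run from -0.03 (Rps14) to 1.35 (Rpl27), while the blue points run from -0.23 (Rpl21) to 0.43 (Rpl27).

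GMP and CMP could not be ordered gene by gene. Here 7 members were lower and 5 higher in GMP (24.2% and 21% of all genes, 45.3% in either direction), with a median of -0.05. In 8 members every GMP library was below every CMP library and in 5 above (25.6% and 22.8% of all genes). On the TPM scale 75 of the 77 had a lower mean in GMP. Lower were Rpl21 (-0.23), Rps24 (-0.20), Rpl22, Rps15 and Rps4x (-0.17 each), Rpl17 and Rpl15 (-0.18, not called with copies added), and higher were Rpl27 (0.43, but 0.03 with copies added), Rpl36al (0.41), Rpl7l1 (0.26), Rpl10-ps3 (0.24) and Rps19bp1. Every mouse decided these counts. Without mouse 305 there were 0 lower and 32 higher, without mouse 300 there were 13 and 2, and without mouse 309 there were 1 and 2. Of all genes, 45.4%, 36.3% and 29.4% were called in either direction in these 3 fits. In summed TPM all 3 mice had lower values in GMP, where GMP markers alone made up 31257 to 36790 TPM against 3954 to 4811 TPM in CMP.

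The wider translation machinery was set beside the members. Of the ribosomal proteins outside the naming rule, Rack1 was lower in KO CMP (-0.21 ± 0.06, edgeR adjusted p = 0.033) and KO MEP (-0.20, 0.014) and Fau, made as a fusion with a ubiquitin-like protein, in KO MEP (-0.25, 0.012). A list of 17 other TOP class genes held translation factors and also Tpt1, Hnrnpa1, Naca and Btf3. It gave 5 lower in CMP (Tpt1 -0.30, Eef1b2 -0.21, Pabpc1 -0.20 and Eef1a1 -0.19 the largest), 7 lower and 1 higher in MEP, and 1 lower in GMP (Eef2 -0.25). The medians of the list were -0.12, -0.09 and -0.11. Beside them, 12.8%, 15.4% and 16.3% of all genes were lower in KO CMP, MEP and GMP, and 14% were higher in KO MEP.

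Among genes that build ribosomes the calls went in both directions. Of 48 biogenesis factors, the calls were 1 down and 3 up for KO CMP and 6 down and 5 up for KO MEP. For KO GMP they were 4 down and 5 up. Of all genes tested, 12.8% were lower and 10.6% higher in CMP, 15.4% and 14% in MEP, and 16.3% and 17.5% in GMP. Tcof1, a nucleolar factor of ribosomal RNA transcription, was lower in CMP (-0.20) and GMP (-0.40), and Rrp9 was lower in MEP (-0.33) and GMP (-0.20). Nmd3, the export adaptor of the large subunit, was higher in CMP and MEP (0.29 and 0.19). Among 78 mitochondrial ribosomal protein genes the calls were 2 up and none down for KO CMP, 8 up and 12 down for KO MEP, and 14 up and 1 down for KO GMP, with medians of 0.01, -0.03 and 0.11. In LT-HSC no gene of these lists was called, and 2 mitochondrial ribosomal protein genes had an unadjusted p under 0.05 in edgeR. From CMP to MEP in WT mice, in contrast, all 48 biogenesis factors and all 78 mitochondrial ribosomal protein genes were higher (medians 0.80 and 0.94). So were 14 of the 17 other TOP class genes (0.46), where 34.4% of all genes were higher.

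Among 18 regulators of ribosomal protein synthesis, Myc, a transcription factor known to drive ribosome production, was lower in KO in all 3 precursor populations. Its log2 changes were -0.27 ± 0.09, -0.23 ± 0.08 and -0.43 ± 0.07 in CMP, GMP and MEP (edgeR adjusted p = 0.084, 0.055 and 0.0041). No other regulator was called in CMP. In MEP Mxi1 (-0.43), Tsc2 (-0.26) and Mnt (-0.24) were also among 5 lower, and Rptor (0.17) was higher. Of all genes 15.4% were lower and 14% higher there. In GMP Mxi1 (0.39) and Eif4ebp1 (0.25) were higher. Myc was higher in WT MEP than in WT CMP (0.34, edgeR adjusted p = 0.014). There 8 regulators were higher and 5 lower, beside 34.4% and 38% of all genes. The largest rise was that of Eif4ebp1 (1.57), from 40.48 CPM in CMP to 120.3 CPM in MEP. The largest fall was that of Mycn (-3.67), from 33.38 to 2.759 CPM.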

How the data were processed

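For each of the 22 libraries the authors ran kallisto 0.43.1 on Ensembl 84 transcripts (mm10) and deposited estimated counts and TPM per transcript, TPM being corrected for effective transcript length. Fragments shared by several transcripts are divided between them. Transcripts (115088, of which 114200 were paired, 99.2%) were summed per gene of the GRCm38 annotation, and estimated counts were rounded. Totals per library had a median of 52785379. The labels name mice but not litters or sort days, so p-values measure the spread between these samples. The members and lists were chosen with earlier results of these data known. A few genes are counted but not reported here by name.

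Each population was fitted with edgeR 4.0.16 in R 4.3.3 (TMM, filterByExpr, quasi-likelihood F-test, genotype as the only term), with Benjamini-Hochberg adjustment over all genes and an FDR of 0.1. WT populations were fitted together, and interactions over 18 precursor libraries, both with the mouse as a block. CPM values are TMM-normalized within each fit. SE is the absolute log2 change over the root of F. LT-HSC levels were compared with the precursors without a test. Copies were found with blastn 2.17.0, and in the fits copies that are members themselves were not added to another member. Named were the stalk genes and Rpsa, the Diamond-Blackfan anaemia genes, paralog pairs, the 5 highest and lowest members, up to 5 members each way with non-overlapping groups among those called, up to 3 called members each way in interactions, and up to 4 of each other list. Deviations of same-mouse samples from their group means correlated from -0.05 to 0.4, and these samples were blocked because they share an animal. On simulated counts edgeR recovered 61% of 1.5-fold and 89% of 2-fold changes in CMP, and 66% and 90% in GMP. In MEP it recovered 58% and 85%, and in LT-HSC 0% of both. False genes made up 8.54% of its calls in CMP, 9.3% in GMP, 13.9% in MEP and 100% in LT-HSC. They made up 14.8% for MEP against CMP and 11.1% for the KO effect in GMP less CMP. Changes smaller than 1.5-fold, such as the median change of members, were not simulated. Alternatives were median-of-ratios size factors, TMM without the members, no filter, DESeq2 1.42.0, a length offset, named pseudogenes added, each sample left out, and blocks. Adding near-identical copies and leaving out mice 304 and 305 were chosen after seeing the data.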

Additional observations from a re-analysis of the deposited data

Results flagged for a closer look

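The KO effect on 4 members differed between GMP and another precursor population by the test of the interaction in edgeR. For Rpl39l it was -2.79 on the log2 scale in GMP less that in CMP, and -2.84 in GMP less that in MEP, at levels that do not exceed 0.6442 CPM in any of the 18 precursor libraries. For Rpl5 it was -0.32 less CMP and -0.29 less MEP, and 0.08 and -0.04 with near-identical copies added. For Rps12 it was 0.33 and for Rpl37a 0.36, both in GMP less MEP. The Rps12 call was lost without mouse 301, 305 (0.19) or 308, and the Rpl37a call without mouse 301, 304 or 309. Leaving out mice 304 and 305 left 1 lower and 1 higher member in GMP less MEP.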

How the results depend on the processing

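In CMP the lower members numbered 22 to 48 with 1 mouse left out (1 higher throughout), 31 with mice 304 and 305 left out, and 76 with 1 higher under a replicate block of neighbouring WT and KO columns. The labels do not name these pairs. Their deviations correlated from 0.19 to 0.37 in CMP and GMP and from -0.03 to 0.32 in MEP, and mice 304 and 305 share the low Y-linked sum. The block left the CMP and MEP counts within 1.5 times. In GMP lower members numbered 2 to 44 (higher 0 to 1) with 1 mouse left out, 28 with mice 304 and 305 left out, 4 with copies added, and 42 with 3 higher under the replicate block. In MEP they numbered 33 to 73 (1 higher) with 1 mouse left out, and 71 with 1 higher under the block. In LT-HSC there were 0 lower and 0 to 11 higher with 1 library left out, and 0 and 0 under the block. Summed TPM, as log2 of KO over WT with 1 mouse left out, ranged from -0.13 to -0.06 in CMP, -0.33 to -0.18 in GMP, -0.20 to -0.15 in MEP and 0.02 to 0.12 in LT-HSC.

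For GMP against CMP in WT mice, lower members numbered 1 with DESeq2, with TMM without the members, with median-of-ratios size factors and with no replicate block, 12 with no filter, and 0 to 13 (higher 2 to 32) with 1 mouse left out. Rpl22l1 and Rpl35a, near 0 in all mice, ranged from -0.09 to 0.16 each with 1 mouse left out, the last without mouse 305. For MEP against CMP, 73 to 82 were higher and 0 lower with 1 mouse left out, and for GMP against MEP 79 to 82 were lower and 0 higher.

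For the KO effect in GMP less CMP there were 1 lower and 1 higher with DESeq2, 1 lower with mice 304 and 305 left out or copies added (Rpl5 turned to 0.08), 0 with no replicate block, and 0 to 3 lower and 0 to 2 higher with 1 mouse left out. For MEP less CMP there were 2 lower with mice 304 and 305 left out, and 0 to 1 lower and 0 higher with 1 left out. For GMP less MEP, 1 was lower with TMM without the members, with copies added and with no replicate block, 1 lower and 1 higher with mice 304 and 305 left out, and 0 to 3 lower and 0 to 2 higher with 1 left out. The cause was not tested. Over single named genes and settings, 3424 of 3782 values kept their side, 187 became weaker, 78 stronger, 90 moved and 3 reversed. All genes had a median beyond 0.1 in LT-HSC (-0.16) and in no other comparison. LT-HSC calls are limited by 2 libraries a group, and levels of genes with copies by shared reads.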
